A study of Homo sapiens with 12 samples.

Results

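The respiratory chain is built from 2 genomes, and the transcripts of both were followed here across 4 culture conditions of MDA-MB-231, an established line of human breast cancer cells that lack hormone receptors and HER2. The cells, labelled wild type and grown in RPMI with serum, had 48 h of treatment, and each group has 3 libraries. NG and CAR were kept at 10 mM glucose and LG and LGCAR at 5 mM. CAR and LGCAR also received 25 µM cariporide, and NG and LG 0 µM. Cariporide is an inhibitor of the plasma membrane sodium-proton exchanger NHE1. Members were chosen by a pattern of gene symbols, with earlier results of these data known. They were 15 genes of the mitochondrial genome, of which 13 encode protein and 2 encode ribosomal RNA, and 89 nuclear genes. The nuclear genes are those for subunits of complexes I to V, cytochrome c and the inhibitor of ATP synthase. In all, 104 of 40929 symbols were members. The pattern also matched UQCRB-AS1, UQCRBP1 and UQCRFS1-DT, which are not protein-coding and were left out.

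Complex I takes electrons from NADH and complex II takes them from succinate. Both pass them through ubiquinone to complex III, cytochrome c and complex IV, and the proton gradient so built drives complex V, the ATP synthase. Complexes I, III, IV and V each join subunits of both genomes, whereas complex II and cytochrome c are wholly nuclear. The mitochondrial genome is transcribed as long transcripts from both strands that are cut into single RNAs, with the ribosomal RNAs closest to the start of heavy-strand transcription and ND6 alone among its messages on the other strand. In the tables these genes are named without a prefix, so that COX1, COX2 and COX3 are cytochrome oxidase subunits and not cyclooxygenases.

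How closely the mitochondrial messages are packed can be seen where ATP8 runs into ATP6, both subunits of the proton channel side of the ATP synthase. The sequence is that of ATP8 on the mitochondrial chromosome (chrMT:8366-8572, plus strand, GRCh38, from GENCODE 29 transcripts), with the 46 bases that it shares with the start of ATP6 in capitals. Counts of these 2 genes, as of ND4L and ND4, which share 7 bases, are therefore not fully separate.
ATP8: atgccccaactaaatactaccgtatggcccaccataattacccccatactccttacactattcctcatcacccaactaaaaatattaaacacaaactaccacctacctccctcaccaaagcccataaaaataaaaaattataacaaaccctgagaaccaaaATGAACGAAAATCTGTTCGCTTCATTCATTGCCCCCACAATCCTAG

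The nuclear members have a promoter each, and 3 of them are shown because their genes are the nuclear members that the test called. RefSeq promoters (GRCh38.p14, 300 bases around the start of the gene, read along the gene) were found for 70 of the 89 nuclear members. CYCS, which encodes somatic cytochrome c, starts within chr7:25125211-25125510 (minus strand). ATP5MC1, which encodes a copy of the ATP synthase c-ring subunit, starts within chr17:48892537-48892836 (plus strand). NDUFS6, which encodes a complex I subunit of the matrix arm, starts within chr5:1801157-1801456 (plus strand). Capitals mark the letters of NRF1 (GCATGCGC), ETS (CCGGAAG), YY1 (AAGATGGCG) or SP1 (GGGCGG) on either strand.
CYCS: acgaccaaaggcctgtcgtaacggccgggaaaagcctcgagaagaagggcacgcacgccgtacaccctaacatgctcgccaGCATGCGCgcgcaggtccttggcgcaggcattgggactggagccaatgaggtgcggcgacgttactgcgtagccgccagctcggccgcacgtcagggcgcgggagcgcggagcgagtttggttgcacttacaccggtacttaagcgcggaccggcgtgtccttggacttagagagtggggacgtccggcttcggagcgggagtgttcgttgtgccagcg
ATP5MC1: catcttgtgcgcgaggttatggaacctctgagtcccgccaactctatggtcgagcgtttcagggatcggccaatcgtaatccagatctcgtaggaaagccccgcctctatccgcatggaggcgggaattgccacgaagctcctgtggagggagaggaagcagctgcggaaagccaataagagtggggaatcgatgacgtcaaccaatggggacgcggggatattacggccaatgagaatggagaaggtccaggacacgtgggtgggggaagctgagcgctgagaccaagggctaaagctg
NDUFS6: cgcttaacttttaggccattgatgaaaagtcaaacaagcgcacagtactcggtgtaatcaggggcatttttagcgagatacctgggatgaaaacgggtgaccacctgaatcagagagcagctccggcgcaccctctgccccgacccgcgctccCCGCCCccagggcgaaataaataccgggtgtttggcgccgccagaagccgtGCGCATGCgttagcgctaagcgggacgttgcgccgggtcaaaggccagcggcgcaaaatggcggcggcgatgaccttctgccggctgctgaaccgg

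The CYCS promoter held the NRF1 letters once, the NDUFS6 promoter held the NRF1 and the SP1 letters, and the ATP5MC1 promoter held none of the 4. The NRF1 letters were in 14 of the 70 member promoters (20%), beside 3.27% of 27305 promoters in the table. The ETS letters were in 20 (28.6%) beside 10.7%, the YY1 letters in 8 (11.4%) beside 1.85%, and the SP1 letters in 42 (60%) beside 44.6%. ATP5PF and SDHB, a peripheral stalk subunit of the ATP synthase and the iron-sulfur subunit of complex II, held the NRF1, ETS and YY1 letters together. The 27305 promoters were not limited to protein-coding or expressed genes, whereas the members are all protein-coding. A difference from other expressed protein-coding genes was not tested. A match describes letters and not a binding site.

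The 12 libraries held 18069004 to 24837409 counts, and 15104 genes were tested with edgeR's quasi-likelihood test and Benjamini-Hochberg adjustment, with a call at an adjusted p under 0.05. Whether libraries of 1 group derive from separate cultures is not stated in the labels, so that p-values measure the spread between these libraries, which may be technical. The 8 markers of the line and its mesenchymal state were all tested and summed to 5450 to 5850 CPM (the usual scale of counts relative to library size, here TMM-scaled) over the groups. Of the 10 luminal and receptor-positive markers 6 were tested, and the list summed to 844 to 1020 CPM, with 1 at 0 in every library. Of the 5 leukocyte markers 1 was tested and 2 were at 0, and the list summed to 54.2 to 73.3 CPM. Of the 4 endothelial markers 2 were tested, and the list summed to 4.50 to 6.33 CPM. DESeq2 called the 1 tested leukocyte marker in LG against NG (edgeR log2 fold change 0.22), where edgeR did not. It also called 1 of the 8 markers of the line in LGCAR against NG, where edgeR called 0. Of the luminal markers, CDH1 was higher in LGCAR against NG (0.79, edgeR adjusted p = 0.0335) and CAR (0.87, edgeR adjusted p = 0.047), and KRT18 was lower against NG (-0.28, edgeR adjusted p = 0.014), on the log2 scale. The call of CDH1 against CAR was lost with any 1 library of those groups left out (edgeR adjusted p from 0.0527 to 0.2) and with DESeq2 (adjusted p = 0.0671), and that against NG with any 1 library left out (edgeR adjusted p from 0.0635 to 0.144). For KRT18 it was lost when NG 2, NG 3, LGCAR 1 or else LGCAR 2 was left out, with edgeR adjusted p from 0.0533 to 0.077. Their part in the results was not tested. Cytosolic ribosomal RNA took 7.10% to 11.5% of the counts, which was highest for LGCAR 3 (11.5%) and NG 1 (11.2%) and lowest for CAR 1 (7.10%).

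Messages of the mitochondrial genome stood far above nuclear ones. Divided by transcript length, which allows genes to be compared, the mean over the 12 libraries had a median of 4360 CPM per kb over the 13 mitochondrial messages and 62.2 over the 83 tested nuclear members. COX1, the catalytic subunit of complex IV, was the highest message at 10000 CPM per kb and ND6, a membrane subunit of complex I, the lowest of the mitochondrial ones at 343. That lowest mitochondrial level was still above the highest nuclear one, 293 CPM per kb for ATP5MF, a membrane subunit of the ATP synthase. Both ribosomal RNAs were high, RNR2 of the large subunit at 16800 and RNR1 of the small subunit at 9110 CPM per kb. By complex, the mitochondrial medians were 3180 CPM per kb for 7 messages of complex I, 7330 for 3 of complex IV and 5100 for 2 of complex V, with CYTB, the only one of complex III, at 3070. The nuclear medians were 42.7 for complex I, 81.5 for II, 57.6 for III, 110 for IV and 89.1 for V, and CYCS alone stood at 194. Complex I had the lowest nuclear median and, next to CYTB, the lowest mitochondrial one.

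**Figure D1:**
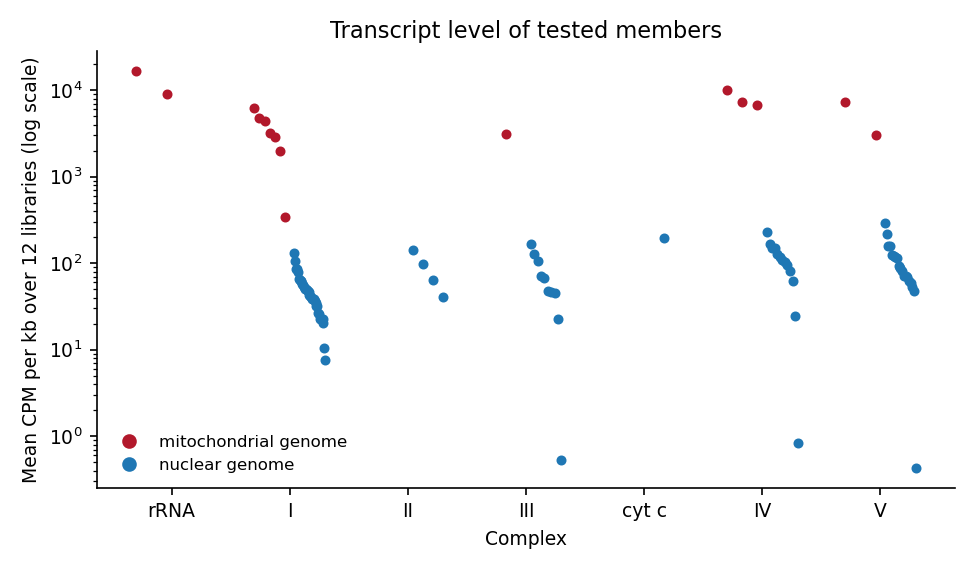
Mean level of each tested member over 12 libraries in CPM per kb of transcript (log scale), by complex, with genes of the mitochondrial genome in red and nuclear genes in blue. Every mitochondrial point lies above every nuclear point, with ND6 at 343 and ATP5MF at 293 CPM per kb closest to each other.

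Among the nuclear members the highest in each complex were NDUFS5 (132 CPM per kb, complex I), SDHC (141, complex II), UQCRB (168, complex III), COX8A (231, complex IV) and ATP5MF (293, complex V). The lowest were NDUFA9 (7.65), SDHB (41.2), UQCRHL (0.525), COX7B2 (0.829) and ATP5MF-PTCD1 (0.43) in the same order. These values depend on annotated lengths and on reads shared with other genes. UQCRHL is a near-identical copy of UQCRH, and the transcript length of 2180 bases used for it is much longer than its RefSeq gene span, so that its value per kb may be several times too low. ATP5MF-PTCD1 is a read-through that shares 88.3% of its exon length with other genes, and COX8A shares 34.5% with an unnamed gene on its strand. In all, 17 members share at least 10% of their exon length with a gene on the same strand and 16 with a gene on the opposite strand, and the levels of these are uncertain. NDUFA9 is among them, at 10.6%. Its mean of 34.4 CPM was also divided by the longest transcript length used for any member, 4502.5 bases, and its rank depends on that length.

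Of the subunits that exist as alternative copies, the ubiquitous copy was the higher one in each pair compared, and some tissue-restricted copies were detected at low level. COX4I1 averaged 96.7 CPM in NG and 118 CPM per kb over all libraries, whereas COX4I2, known from lung, had no count in any library. COX6A2 and COX7A1, the copies known from heart and skeletal muscle, also had no count, beside 150 CPM per kb for COX6A1 and 166 for COX7A2. A count of 0 allows up to 3 counts, or 0.166 CPM in the smallest library. COX6B2, known from testis, had 51 counts over all 12 libraries against 66.2 to 81.8 CPM for COX6B1 in NG. COX7B2 had 127 counts and was tested, at 0.829 CPM per kb beside 110 for COX7B. COX4I2, COX6A2, COX7A1 and COX6B2, with COX8C (1 count) and ATP5MGL (8 counts), were the nuclear members not tested, which left 83. The 3 c-ring genes encode the same mature protein. In NG, ATP5MC3 made 49.6% ± 1.01 of their summed CPM, ATP5MC2 34.3% ± 0.320 and ATP5MC1 16.1% ± 0.697 (SD, n = 3), and in LGCAR the shares were 50.9% ± 0.516, 34.3% ± 0.988 and 14.8% ± 0.926. The shares of ATP5MC2 and ATP5MC3 overlapped between NG and LGCAR, and ATP5MC1 ran from 15.5% to 16.9% in NG and from 13.8% to 15.4% in LGCAR.

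The first question was how the 2 sets moved over the 4 groups. The 13 mitochondrial messages took 5.36%, 5.88% and 6.36% of the counts in NG 1 to 3, 6.86%, 5.82% and 6.12% in CAR, 5.53%, 5.81% and 6.66% in LG, then 5.43%, 5.26% and 4.88% in LGCAR. LGCAR lay below all CAR and LG libraries, and LGCAR 1 was above NG 1. The 2 mitochondrial ribosomal RNAs went the other way, with 3.67%, 3.45% and 3.37% in NG, 2.83%, 3.36% and 3.16% in CAR, 3.54%, 3.31% and 3.29% in LG, then 3.91%, 4.08% and 3.86% in LGCAR. Every LGCAR library was above every library of the other groups. The 89 nuclear members together took 0.520% to 0.605% in NG, 0.536% to 0.605% in CAR, 0.525% to 0.598% in LG, with 0.512% to 0.521% in LGCAR. LGCAR lay below CAR and LG, and only its highest library reached the lowest of NG. Counting error was small beside the differences in the 2 mitochondrial sets, with a 95% Wilson interval of at most 0.014 percentage points to each side, which covers counting error only. For the nuclear members the intervals of LGCAR 2 (0.5182% to 0.5248%) and LG 1 (0.5219% to 0.5277%) overlapped.

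**Figure D2:**
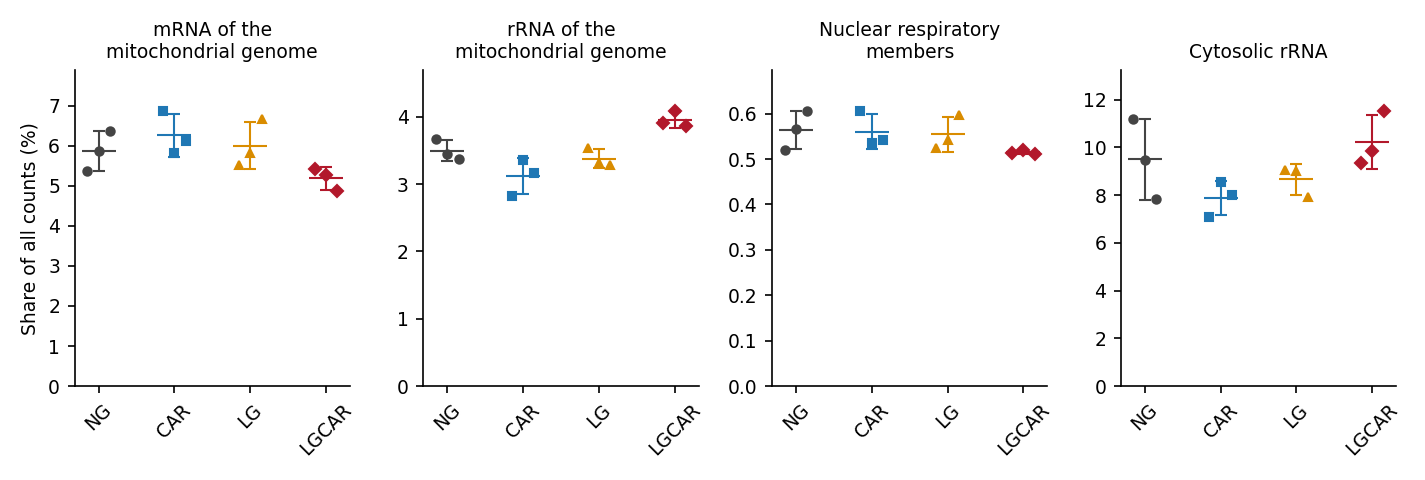
Share of all counts (%) in each library for mitochondrial messages, mitochondrial ribosomal RNA, nuclear members and cytosolic ribosomal RNA, with points for libraries and bars for the mean ± SD of each group (n = 3). LGCAR is highest for mitochondrial ribosomal RNA (3.86% to 4.08%) and lowest by mean for the messages of both genomes.

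By group mean, cytosolic ribosomal RNA ranked as mitochondrial ribosomal RNA did and in the reverse order of the mitochondrial messages. It took 11.2%, 9.45% and 7.83% in NG, 7.10%, 8.53% and 7.98% in CAR, 9.06%, 9% and 7.91% in LG, then 9.32%, 9.84% and 11.5% in LGCAR. Its part in the results was not tested, and the sources used here do not give whether ribosomal RNA was depleted or polyadenylated RNA selected. With the counts of both kinds of ribosomal RNA taken out of the total, mitochondrial messages were 6.29% to 7.17% in NG, 6.60% to 7.61% in CAR, 6.33% to 7.5% in LG, with 5.76% to 6.26% in LGCAR. On that scale LGCAR lay below all other libraries. The nuclear members were 0.611% to 0.681% in NG, 0.608% to 0.671% in CAR, 0.600% to 0.673% in LG, with 0.592% to 0.606% in LGCAR, so that LGCAR was below NG and CAR and overlapped LG. In bulk cultures fewer cells of a type and less RNA per cell cannot be told apart.

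The ratio of mitochondrial to nuclear message, taken within each library, needs no scaling between libraries. It was 10.3, 10.4 and 10.5 in NG, 11.3, 10.9 and 11.3 in CAR, 10.5, 10.7 and 11.1 in LG, then 10.6, 10.1 and 9.53 in LGCAR. Both sets were lowest in LGCAR, and the ratio there overlapped that of NG, with a mean difference of -0.05 on the log2 scale. CAR was above NG by 0.10 and LG by 0.05 on the log2 scale, in both cases without overlap (LG only just), and LGCAR was below CAR by a difference of -0.15 without overlap. No test was made of these sums over members. Adding RNR1 and RNR2 to the mitochondrial side turned the last difference to 0.08 and that of LGCAR and NG to 0.09.

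By complex, the mitochondrial to nuclear ratio of LGCAR stood apart from all other libraries in complex III. There CYTB over the 10 nuclear members was 5.37 ± 0.0363 in NG, 5.72 ± 0.0316 in CAR, 5.39 ± 0.0991 in LG, then 4.78 ± 0.161 in LGCAR (SD, n = 3 each). All LGCAR libraries, from 4.60 to 4.88, lay below all others. For complex IV the ratio was 28.2 ± 0.185 in NG, 29.5 ± 0.565 in CAR, 28.4 ± 0.800 in LG, then 26.8 ± 1.18 in LGCAR (SD, n = 3 each), and LGCAR, at 25.6 to 27.9, did not reach the 28.1 to 28.4 of NG. For complexes I and V, LGCAR overlapped NG, at 14.5 to 16.1 beside 15.1 to 15.8 and at 2.51 to 2.86 beside 2.73 to 2.87. CAR lay above the other 3 groups in complex III (5.7 to 5.76) and in complex V (3.03 to 3.2).

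**Figure D3:**
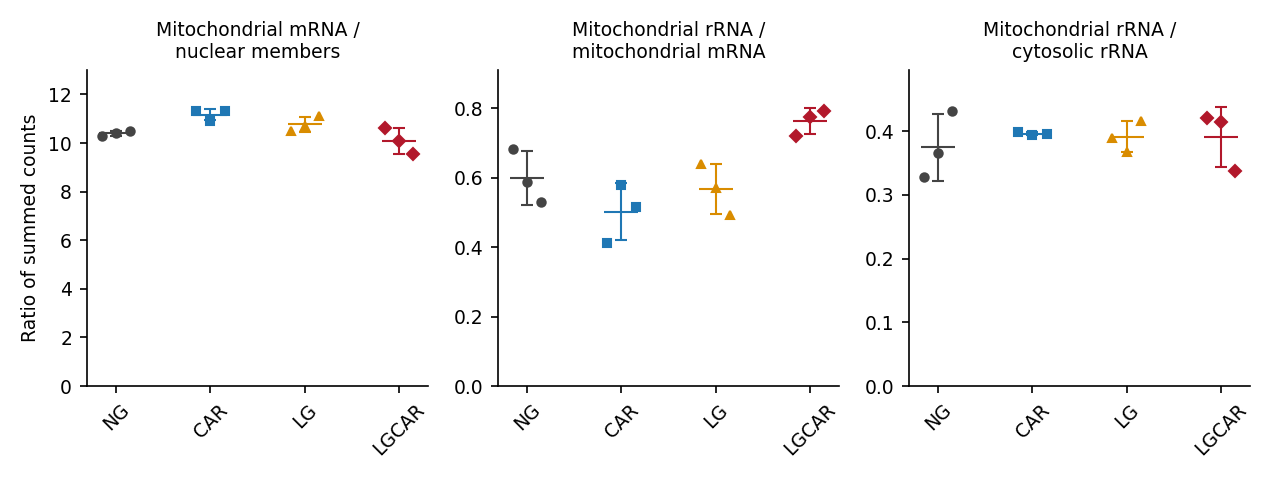
Ratios of summed counts within each library, with points for libraries and bars for the mean ± SD of each group (n = 3). LGCAR stands apart from the other groups in mitochondrial ribosomal RNA over mitochondrial message (0.72 to 0.791, against at most 0.684 elsewhere), and no group stands apart in mitochondrial over cytosolic ribosomal RNA.

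Within the mitochondrial genome, ribosomal RNA and message parted. The ratio of RNR1 and RNR2 to the 13 messages was 0.684, 0.587 and 0.530 in NG, 0.413, 0.578 and 0.517 in CAR, 0.640, 0.570 and 0.494 in LG, then 0.720, 0.776 and 0.791 in LGCAR. LGCAR was above all other libraries. Mitochondrial over cytosolic ribosomal RNA, by contrast, ran from 0.328 to 0.431 in NG, from 0.394 to 0.399 in CAR, from 0.368 to 0.416 in LG, then from 0.337 to 0.420 in LGCAR, and overlapped in all 5 comparisons of 2 groups.

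RNR1 (chromosome MT, 648 to 1601, plus strand) encodes the ribosomal RNA of the small subunit. It was at 10300, 9110 and 8480 CPM in NG, 6520, 7780 and 7320 in CAR, 8500, 8090 and 7770 in LG, then 9210, 10700 and 10600 in LGCAR. CAR lay wholly below NG, and LGCAR lay wholly above LG and CAR. RNR1 rose in LGCAR against CAR with a log2 fold change of 0.49 (edgeR adjusted p = 0.00672, SE 0.0828), 1.41-fold. The change of LGCAR against LG was 0.32 (edgeR adjusted p = 0.294) and that of CAR against NG was -0.37 (edgeR adjusted p = 0.894), neither called. The interaction, LGCAR minus LG less the difference of CAR minus NG, was 0.69 (edgeR adjusted p = 0.152, SE 0.117), not called by edgeR and called by DESeq2 (adjusted p = 1.31e-05). The call against CAR was lost without LGCAR 2 (edgeR adjusted p = 0.056) and without LGCAR 3 (edgeR adjusted p = 0.0527). With NG 1 and LGCAR 3 both left out it held (edgeR adjusted p = 0.045).

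RNR2 (chromosome MT, 1671 to 3229, plus strand) encodes the ribosomal RNA of the large subunit. It was at 27200, 25500 and 25000 CPM in NG, 21100, 25300 and 23700 in CAR, 27000, 25000 and 24900 in LG, then 30100, 30700 and 29100 in LGCAR. Every LGCAR library was above every other library. The rise of LGCAR against CAR was called, at a log2 fold change of 0.36 (edgeR adjusted p = 0.0181, SE 0.0703). It was 0.21 against NG (edgeR adjusted p = 0.0675) and 0.23 against LG (edgeR adjusted p = 0.351), neither called. The call was lost without CAR 3 and without any 1 of the 3 LGCAR libraries, with edgeR adjusted p from 0.0583 to 0.102, and with NG 1 and LGCAR 3 both left out (edgeR adjusted p = 0.0772). RNR1 over RNR2 was 0.307 to 0.309 in CAR and 0.313 to 0.323 in LG, both below the 0.339 to 0.378 of NG, and 0.306 to 0.364 in LGCAR.

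Of the mitochondrial messages, CYTB was called in 2 comparisons and COX3 in 1. CYTB (chromosome MT, 14747 to 15887, plus strand) encodes cytochrome b, the subunit of complex III that holds both quinone sites. It was at 3410, 3650 and 3960 CPM in NG, 4090, 3560 and 3610 in CAR, 3280, 3510 and 3930 in LG, then 3070, 3070 and 2930 in LGCAR. All LGCAR libraries were below all others. CYTB fell from 3670 ± 275 CPM in NG to 3020 ± 80.5 in LGCAR (SD, n = 3 each), a log2 fold change of -0.28 (edgeR adjusted p = 0.0317, SE 0.0747), and against CAR by -0.31 (edgeR adjusted p = 0.0447, SE 0.0747). Against LG it was -0.24 (edgeR adjusted p = 0.345), not called. In LGCAR against NG edgeR called CYTB alone of the 15 mitochondrial members and DESeq2 called 4 (CYTB, COX3, ND1 and RNR2), where 8.75% of all tested genes were called by edgeR and 12.2% by DESeq2, and 7 of 15 had an unadjusted p under 0.05, beside 28.9% of all genes.

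COX3 (chromosome MT, 9207 to 9990, plus strand) encodes a core subunit of complex IV that neighbours the catalytic one. It was at 5670, 5880 and 6450 CPM in NG, 7120, 5650 and 6230 in CAR, 5270, 5510 and 6330 in LG, then 5190, 4990 and 4690 in LGCAR. LGCAR again lay below all others. COX3 fell in LGCAR against CAR, with a log2 fold change of -0.35 (edgeR adjusted p = 0.0472, SE 0.0856), and the value against NG was -0.28 (edgeR adjusted p = 0.0541), not called. With RNR1, RNR2 and CYTB it made 4 of 15 mitochondrial members called in LGCAR against CAR, 2 in each direction, beside 1.65% of all tested genes. The calls of CYTB and COX3 against CAR were lost without CAR 1, CAR 3 or any 1 LGCAR library, with edgeR adjusted p from 0.0869 to 0.169 for CYTB and from 0.113 to 0.187 for COX3. That of CYTB against NG was lost without NG 2, NG 3 or any 1 LGCAR library, with edgeR adjusted p from 0.0783 to 0.153. With 1 of these libraries left out, calls over all genes fell as well. They were 0.889% to 2.18% of genes against NG and 0.332% to 1.16% against CAR. Without CAR 1, the library lowest in cytosolic ribosomal RNA, the log2 fold change against CAR was -0.25 for CYTB and -0.26 for COX3. Without NG 1 and LGCAR 3 that of CYTB against NG was -0.32 (edgeR adjusted p = 0.0827).

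COX1 and COX2, the catalytic subunits of complex IV that hold its copper centres, had log2 fold changes of -0.17 and -0.18 in LGCAR against NG, and neither was called. COX1 was at 14700 to 16800 CPM in NG and 13500 to 14300 in LGCAR, without overlap, while COX2, at 4180 to 5190 and 3970 to 4510, overlapped. In complex V, ATP6 and ATP8 both stood at -0.18. ATP6 was at 4620 to 5370 CPM in NG and 4190 to 4510 in LGCAR, and ATP8, which is short and varied more, ran from 500 to 739 and from 470 to 633.

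The 7 mitochondrial messages of complex I differed among themselves. In LGCAR against NG, ND1 and ND3 had log2 fold changes of -0.23 and -0.24 and ND2 of -0.13, each without overlap of the groups. ND4 (-0.06), ND5 (-0.05) and ND4L (0.00) overlapped. ND6 (chromosome MT, 14149 to 14673, minus strand), the message of the light strand, was the only one above 0, at 0.14. EdgeR called none of the 7 in any comparison, and DESeq2 called ND1 in LGCAR against NG. ND6 was at 159, 169 and 178 CPM in NG, 186, 206 and 210 in CAR, 184, 159 and 156 in LG, then 203, 183 and 172 in LGCAR. CAR lay above NG, with a log2 fold change of 0.25 (edgeR adjusted p = 0.894). Relative to the other 12 messages, ND6 was 0.00282 to 0.00291 in NG and 0.00345 to 0.00373 in LGCAR, without overlap, and 0.00279 to 0.0036 in CAR. The library kit marks strand, but the sources used here do not give whether the counting used it, and reads of ND6 may then include reads from the opposite strand.

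**Figure D4:**
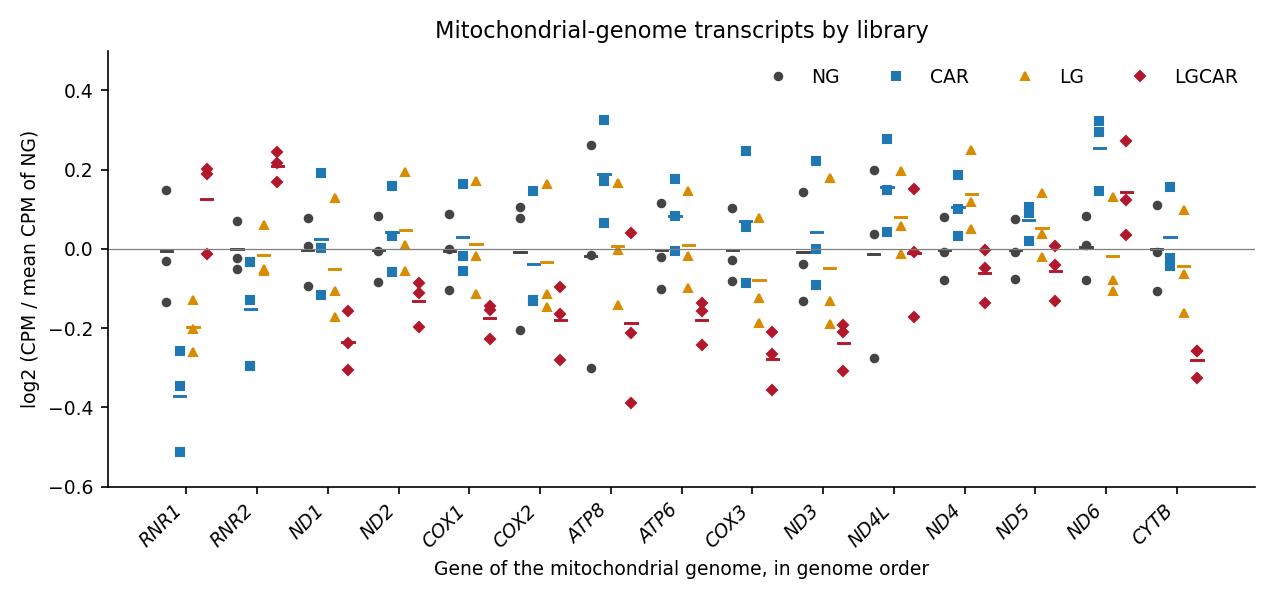
Level of each of the 15 mitochondrial members in each library as log2 of its CPM over the mean CPM of NG, in genome order, with points for libraries and short lines for group means (n = 3). In LGCAR the 2 ribosomal RNAs lie above NG by mean and 12 of 13 messages lie at or below it, ND6 being the exception.

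Over the 4 groups, LGCAR had the lowest group mean for 12 of the 13 messages, and CAR had the highest for 10. In LGCAR against CAR all 13 had a log2 fold change below 0 (median -0.21, where the median of all tested genes was 0.01), 10 of them without overlap, beside 11.9% of all tested genes lower without overlap. In LGCAR against LG 12 of 13 were below 0, beside 50.4% of all genes, with a median of -0.19 and no call. There edgeR called 0 mitochondrial members, beside 0.00662% of all genes, and DESeq2 called 0. An unadjusted p under 0.05 was found for 10 of 15, beside 11.9% of all genes. Without LG 3 that count was 3, and the median over the 15 went from -0.19 to -0.10; without LGCAR 3 the count was 5. In LG against NG 6 of 13 were below 0, beside 48.1% of all genes, and the median was 0.01. Over all 15 members the median was -0.02, and it ran from -0.07 without NG 1 or LG 3 to 0.04 without NG 3. EdgeR and DESeq2 called 0 mitochondrial members there, beside 1.73% of all genes called by edgeR, and 1 (RNR1) had an unadjusted p under 0.05, beside 15.2% of all genes. In CAR against NG 12 of 13 messages were above 0 with a median of 0.07. This direction rested on single libraries. Over all 15 members the median was 0.05 with 3 below 0, and it was -0.02 with 9 below 0 without CAR 1 and 0.00 with 7 below 0 without NG 1. EdgeR called 0 of the 15, as it called 0% of all genes, 3 had an unadjusted p under 0.05, beside 4.53% of all genes, and DESeq2 called 1, RNR1 (adjusted p = 0.0468). For the interaction edgeR called 0 of the 15, beside 0.00662% of all genes, with 7 at an unadjusted p under 0.05, beside 3.12%, and DESeq2 called 1, RNR1. The 7 became 3 without NG 1, 12 without NG 3, 4 without LG 3 or LGCAR 3, 11 without LG 1 and 2 with NG 1 and LGCAR 3 both left out. All 13 messages had an interaction below 0, beside 49.3% of all genes, with a median of -0.25. LGCAR is shared by 3 of these comparisons and NG by 3, so that they do not support one another.

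Nuclear members were slightly lower in LGCAR across most of the chain. In LGCAR against NG, 73 of 83 had a log2 fold change below 0, with a median of -0.13, where 48.3% of all tested genes were below 0 and the median was 0.01. EdgeR called 3 of the 83, all lower, namely CYCS, ATP5MC1 and NDUFS6, beside 8.75% of all genes called and 4.12% called lower. The members' share called was therefore below that of all genes. An unadjusted p under 0.05 was found for 24 of 83 (28.9%), the same share as over all genes when both directions are pooled. By direction, 23 of these 24 were lower, where 1989 of the 4369 genes at that p were lower over all 15104 tested genes. Lower without overlap were 27 of 83, beside 17.5% of all genes. LGCAR had the lowest group mean for 66 of the 83 members and NG the highest for 51. The median without NG 1 was -0.18, without NG 3 it was -0.08, and with NG 1 and LGCAR 3 both left out -0.18.

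**Figure D5:**
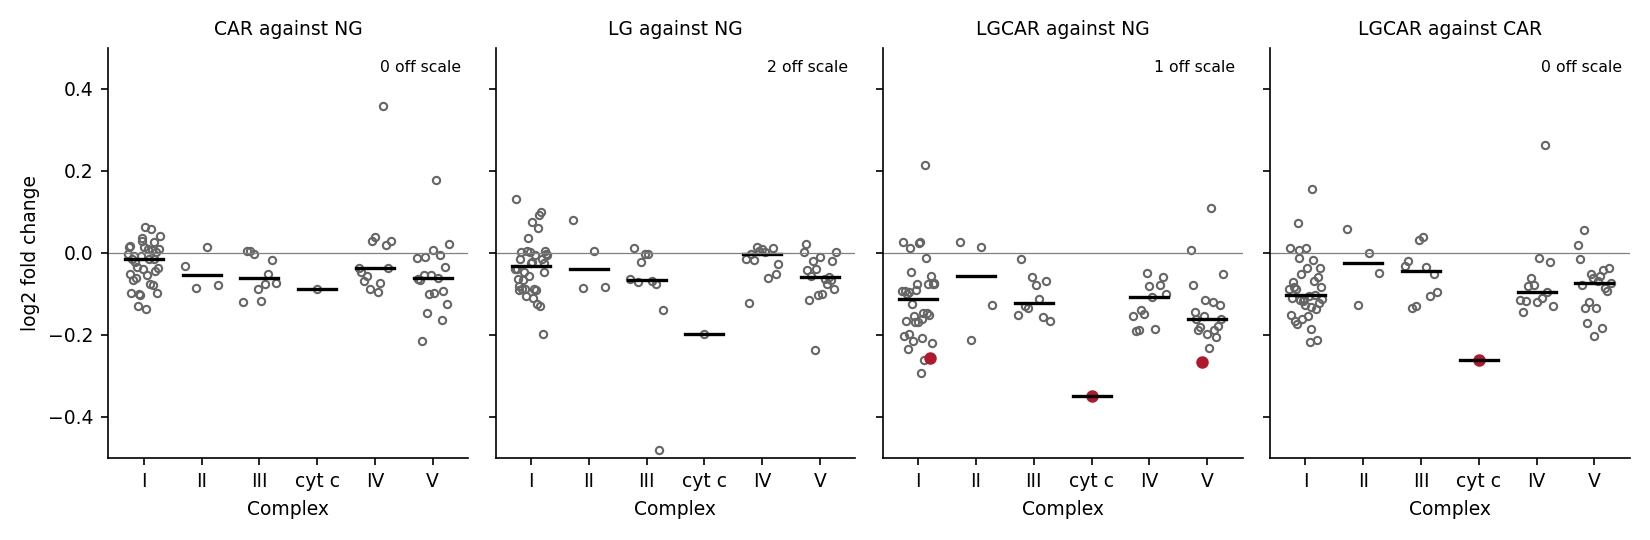
Log2 fold change of each tested nuclear member by complex in 4 comparisons, with called members in red and black lines for the median of each complex. In LGCAR against NG most members lie below 0, and the called ones are CYCS (-0.35), ATP5MC1 (-0.27) and NDUFS6 (-0.26). The values of COX7B2 and ATP5MF-PTCD1 outside -0.5 to 0.5 are counted as off scale.

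CYCS (chromosome 7, 25118656 to 25125260, minus strand, GRCh38.p14), the mobile electron carrier between complexes III and IV and a trigger of apoptosis when released, had the largest change among the nuclear members called. It was at 201, 204 and 224 CPM in NG, 209, 186 and 196 in CAR, 175, 178 and 197 in LG, then 159, 173 and 162 in LGCAR. LGCAR lay below all other libraries, and LG lay below NG. CYCS fell from 210 ± 12.6 CPM in NG to 165 ± 7.54 in LGCAR (SD, n = 3 each), 1.27-fold lower, at a log2 fold change of -0.35 (edgeR adjusted p = 0.00546, SE 0.0617). This call held in each of the 14 alternative settings, with edgeR or DESeq2 adjusted p from 2.68e-05 to 0.0432. Against CAR it fell by -0.26 (edgeR adjusted p = 0.0435, SE 0.0617), the only nuclear call in that comparison. That call was lost without CAR 1, CAR 3 or any 1 LGCAR library, with edgeR adjusted p from 0.0926 to 0.176. Against LG it was -0.15 (edgeR adjusted p = 0.397) and LG against NG was -0.20 (edgeR adjusted p = 0.129), neither called. Without LG 3 the latter was called at -0.26 (edgeR adjusted p = 0.0337).

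In complex V, ATP5MC1 (chromosome 17, 48892787 to 48895871, plus strand) was at 32.8, 36.5 and 37.4 CPM in NG, 35.6, 30.3 and 30.3 in CAR, 28.8, 30.6 and 31.2 in LG, then 30.1, 27.8 and 30.7 in LGCAR. LG and LGCAR both lay below NG and overlapped each other. It fell in LGCAR against NG at a log2 fold change of -0.27 (edgeR adjusted p = 0.0384, SE 0.0748), and LG against NG was -0.24 (edgeR adjusted p = 0.129), not called. The other c-ring genes stood at -0.15 for ATP5MC2 and -0.11 for ATP5MC3 in LGCAR against NG, not called. The 2 subunits of the catalytic head differed little, with ATP5F1A at 0.01 and ATP5F1B at -0.08, both overlapping NG. Over the 19 tested nuclear members of complex V the median was -0.16 with 17 below 0. DESeq2 called ATP5MC1 in LGCAR against NG and also ATP5MF, both lower, where it called 12.2% of all genes. ATP5IF1, the inhibitor protein that binds the head when the gradient collapses, was at 52.2, 53.3 and 56.7 CPM in NG and 49.8, 46.3 and 46.9 in LGCAR, at -0.18 (edgeR adjusted p = 0.151). The values of this complex ran from -0.27 to 0.11.

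In complex I, NDUFS6 (chromosome 5, 1801407 to 1816048, plus strand) was at 43.4, 44.3 and 45.7 CPM in NG, 48.0, 40.6 and 40.6 in CAR, 38.2, 35.9 and 42.4 in LG, then 38.1, 38.0 and 35.5 in LGCAR. LGCAR lay below NG and CAR and overlapped LG. It fell in LGCAR against NG at a log2 fold change of -0.26 (edgeR adjusted p = 0.0417, SE 0.0741). The calls of NDUFS6 and ATP5MC1 were lost without NG 2, NG 3 or any 1 LGCAR library, with edgeR adjusted p from 0.0859 to 0.163 and from 0.0775 to 0.169. Over the 36 nuclear members of complex I, 31 were below 0 with a median of -0.11. DESeq2 called NDUFS6 in LGCAR against NG and also NDUFA11, NDUFB7, NDUFC2 and NDUFS8, all lower, where it called 12.2% of all genes. NDUFB9, a membrane arm subunit, was at 19.9, 19.8 and 20.3 CPM in NG, 21.1, 19.3 and 19.8 in CAR, 19.5, 20 and 20.2 in LG, then 16.5, 17.1 and 18.3 in LGCAR. All LGCAR libraries lay below all others, at -0.21 against NG (edgeR adjusted p = 0.0552), -0.20 against LG (edgeR adjusted p = 0.354) and -0.22 against CAR (edgeR adjusted p = 0.0981), none called. NDUFB9 shares 21.0% of its exon length with genes on the opposite strand. NDUFS1, the largest subunit of the complex, which carries iron-sulfur clusters, was the member of complex I with the highest value and was singled out after its values were seen. It was at 91.9, 85.7 and 85.8 CPM in NG, 80.3, 96.6 and 97.2 in CAR, 98.6, 88.2 and 87.5 in LG, then 103, 95.9 and 106 in LGCAR. LGCAR lay above NG at a log2 fold change of 0.21 (edgeR adjusted p = 0.0696), not called.

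In complex II, which has no mitochondrial subunit, 2 of 4 members were below 0 and the median was -0.06. SDHB was at 48.9, 49.6 and 53.4 CPM in NG and 43.1, 41.9 and 46.2 in LGCAR, at -0.21 (edgeR adjusted p = 0.0709). The flavoprotein SDHA stood at 0.03 and the membrane anchors SDHC and SDHD at 0.01 and -0.13. EdgeR called none of the 4 in any comparison, and DESeq2 called SDHB in LGCAR against NG.

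In complex III all 10 nuclear members were below 0 in LGCAR against NG, with a median of -0.12 and a range from -0.17 to -0.02, and none was called. CYC1, the haem subunit that hands electrons to cytochrome c, was at 86.1, 85.7 and 95.5 CPM in NG and 80.8, 78.3 and 81.5 in LGCAR, without overlap, at -0.15 (edgeR adjusted p = 0.131). In complex IV 12 of 13 were below 0 with a median of -0.11. COX5A, a matrix-side subunit, was at 55.9, 56.9 and 60.9 CPM in NG and 51.2, 49.4 and 51.5 in LGCAR, without overlap, at -0.19 (edgeR adjusted p = 0.0559). COX4I1, which carries the nucleotide-sensing site of the complex, was at -0.15 (edgeR adjusted p = 0.159), and NDUFA4, once assigned to complex I and now to complex IV, at -0.10. COX7A2L, which links complexes III and IV in supercomplexes, stood at -0.11. EdgeR called no nuclear member of complex III or IV in any comparison, and DESeq2 called COX5A in LGCAR against NG.

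With cariporide alone and with lower glucose alone the nuclear set differed less from NG. In CAR against NG the median was -0.04 with 59 of 83 below 0, where 49.5% of all genes were below 0, with single libraries moving both values. Without NG 3 the median was 0.00 with 43 below 0, and without CAR 1 it was -0.10 with 76 below 0. With scaling by library totals only it was 0.00 with 43 below 0. EdgeR and DESeq2 called 0 of 83, beside 0% of all genes by edgeR, and 1 had an unadjusted p under 0.05, beside 4.53% of all genes, or 18 without CAR 1 and 5 without NG 1. That 1 was ATP5F1D, a central stalk subunit of complex V, at -0.22 (edgeR adjusted p = 0.894). In LG against NG the median was -0.04 with 61 of 83 below 0, where 48.1% of all genes were below 0. EdgeR and DESeq2 called 0, beside 1.73% of all genes by edgeR, and 4 had an unadjusted p under 0.05, beside 15.2% of all genes. Without LG 3 that count was 17 and without NG 1 it was 10. The count below 0 rested on single libraries, being 77 without LG 3, 76 without NG 1, 38 without NG 3 and 40 without LG 1. In LGCAR against LG 76 of 83 were below 0 with a median of -0.08, where 50.4% of all genes were below 0. EdgeR and DESeq2 called 0, beside 0.00662% of all genes by edgeR, and 8 had an unadjusted p under 0.05, beside 11.9% of all genes. Without LG 3 the median was -0.03, with 54 below 0 and 2 at that p, and without LG 1 it was -0.13, with 79 below 0 and 19 at that p. In LGCAR against CAR 71 of 83 were below 0 with a median of -0.09 where 48.4% of all genes were below 0, and 1 was called, beside 1.65% of all genes. An unadjusted p under 0.05 was found for 8, beside 17.6% of all genes. Without CAR 1 the median was -0.02 and the count 52. For the interaction the median was -0.04 (0.02 without CAR 1 and 0.01 without LG 3). EdgeR and DESeq2 called 0 of 83, beside 0.00662% of all genes by edgeR. An unadjusted p under 0.05 was found for 1 (NDUFB9, at -0.21), beside 3.12% of all genes. No difference in response between the 2 sets was tested, since it would be a score over members.

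Genes that build or run the chain were taken from lists and read from the same fit. Of 20 assembly factors of complex I, 17 were below 0 in LGCAR against NG with a median of -0.11, where 48.3% of all genes were below 0. NDUFAF2, a chaperone of late complex I assembly, was the 1 called, beside 8.75% of all genes. It was at 30.1, 31.4 and 33 CPM in NG and 26.5, 24.1 and 23.3 in LGCAR, at a log2 fold change of -0.36 (edgeR adjusted p = 0.0412, SE 0.101). Of 43 assembly factors of complexes II to V, 34 were below 0 with a median of -0.09, and 3 fell, a share near the 8.75% of all genes called, namely COA7 (-0.23) and COX20 (-0.24), which act in complex IV assembly, and HIGD1A (-0.25), a small inner membrane protein that binds complex IV (edgeR adjusted p from 0.0335 to 0.0428). Of 13 genes of coenzyme Q synthesis edgeR and DESeq2 called 0 in any comparison. In LGCAR against NG, where edgeR called 8.75% of all genes, their median was 0.00. There 1 of the 13 had an unadjusted p under 0.05, beside 28.9% of all genes. Of 16 tested subunits and carriers outside the symbol rule, 1 was called in LGCAR against NG, beside 8.75% of all genes. It was NNT, the proton-driven transhydrogenase that makes NADPH, which rose at 0.26 (edgeR adjusted p = 0.019).

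For the genes that copy and transcribe the mitochondrial genome, 3 of 28 were called in LGCAR against NG, near the 8.75% of all genes called. TFB2M, the factor that melts the mitochondrial promoters for the RNA polymerase, was at 17.2, 19.6 and 20.9 CPM in NG, 18.7, 16.9 and 17.6 in CAR, 15.7, 16.3 and 17.7 in LG, then 14.3, 14.9 and 14.7 in LGCAR. LGCAR lay below all other libraries, and TFB2M fell at a log2 fold change of -0.40 (edgeR adjusted p = 0.0115, SE 0.0814). TWNK, the replicative helicase, fell at -0.25 (edgeR adjusted p = 0.0262) and TK2, the thymidine kinase that supplies mitochondrial nucleotides, rose at 0.32 (edgeR adjusted p = 0.0151). The list as a whole had a median of -0.02. Of 27 tested genes for processing and stability of mitochondrial RNA, 2 were called in LGCAR against NG, near the 8.75% of all genes called. These were FASTKD3 (-0.39, edgeR adjusted p = 0.012) and HSD17B10 (-0.29, edgeR adjusted p = 0.0346), and both fell. HSD17B10 is a subunit of mitochondrial RNase P, which cuts at tRNA ends, and FASTKD3 is a regulator of mitochondrial message levels. FASTKD5, needed to process messages not flanked by tRNAs, fell in LG against NG at -0.32 (edgeR adjusted p = 0.0323). It was the 1 gene of this list called there, beside 1.73% of all genes.

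Of 17 tested nuclear regulators, edgeR called 3 in LG against NG, beside 1.73% of all genes, and 3 in LGCAR against NG, beside 8.75%. It called 1 in LGCAR against CAR, beside 1.65%, and 0 in the other comparisons. HIF1A, the oxygen-regulated factor that shifts cells from respiration to glycolysis, was at 434, 418 and 418 CPM in NG, 419, 448 and 449 in CAR, 528, 539 and 535 in LG, then 544, 558 and 517 in LGCAR. The groups at 5 mM glucose lay wholly above those at 10 mM. HIF1A rose in LG against NG at 0.34 (edgeR adjusted p = 0.00188, SE 0.047), in LGCAR against NG at 0.35 (edgeR adjusted p = 0.00125, SE 0.0471) and in LGCAR against CAR at 0.30 (edgeR adjusted p = 0.00462, SE 0.047). All 3 calls held in each of 14 alternative settings. PPARGC1A, the coactivator of mitochondrial biogenesis, was at 4.60, 4.30 and 3.61 CPM in NG, 3.77, 5.24 and 4.35 in CAR, 7.48, 7.04 and 5.88 in LG, then 4.96, 8.08 and 6.01 in LGCAR. It rose in LG against NG at 0.71 (edgeR adjusted p = 0.0456, SE 0.172) and in LGCAR against NG at 0.60 (edgeR adjusted p = 0.0446, SE 0.176), on low counts. MYC, a general driver of growth genes, rose in LG against NG at 0.26 (edgeR adjusted p = 0.0398). In LGCAR against LG it stood at -0.30 (edgeR adjusted p = 0.282), not called in the fit reported and called in 2 of 14 alternative settings. CHCHD2, which acts both on complex IV and as a factor for its genes, fell in LGCAR against NG at -0.23 (edgeR adjusted p = 0.0326). NRF1, GABPA and YY1, factors known for respiratory promoters, were not called in any comparison.

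Of 26 genes for pyruvate entry and the citrate cycle, 4 were called in LGCAR against NG, beside 8.75% of all genes. PDP2, a phosphatase that activates pyruvate dehydrogenase, rose at 0.47 (edgeR adjusted p = 0.0084, SE 0.0896) and PDK3, a kinase that inactivates it, rose at 0.29 (edgeR adjusted p = 0.0446, SE 0.0844). PC, which turns pyruvate into oxaloacetate, rose at 0.28 (edgeR adjusted p = 0.0128, SE 0.0594), and in LG against NG at 0.25 (edgeR adjusted p = 0.0451). In LG against NG it was the 1 gene of this list called, beside 1.73% of all genes. The fourth call in LGCAR against NG, MPC2, a subunit of the pyruvate carrier of the inner membrane, fell at -0.23 (edgeR adjusted p = 0.0483). The call of HIF1A in LGCAR against NG held with each single library left out. The other calls on these lists in that comparison were each lost without NG 3 and without at least 1 LGCAR library, with edgeR adjusted p from 0.051 to 0.204, except MPC2, which was named after its values were seen and was not rerun. Those of MYC, PPARGC1A, PC and FASTKD5 in LG against NG were lost without NG 2, NG 3 or LG 1, among others, with edgeR adjusted p from 0.0713 to 0.226. No gene of the cycle itself was called in any comparison.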

How the data were processed

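Trizol RNA of 12 MDA-MB-231 libraries was prepared with NEBNext's directional Ultra II chemistry, according to the labels' protocols. The deposited values are raw counts per gene symbol, 1 set for each library. GATK, Salmon, STAR and fastp, with GRCh38, are listed per the submitters' processing notes. The counting tool, its use of strand and versions of any of them: not given in the sources used here. Counts were fitted with edgeR 4.0.16 (limma 3.58.1, R 4.3.3), with its expression filter, TMM scaling, 1 mean per group and robust quasi-likelihood tests, which were also tested on simulated data. P-values were adjusted by Benjamini-Hochberg over 15104 genes. DESeq2 1.42.0, other scalings, no filter, a replicate block, groups alone and left-out libraries were alternatives. Figures used Python 3.11.15 and matplotlib 3.10.9. Lengths, exon overlaps and mitochondrial sequences came from GENCODE 29, coordinates and promoters from RefSeq GRCh38.p14. CPM per kb divides by transcript length.

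Genes named were all mitochondrial members, per comparison and complex up to 3 called nuclear members with the smallest p (or the smallest p where none was called), the highest and lowest level in each complex, alternative subunits, and up to 3 called genes of each list. SDHA, SDHC, SDHD, ATP5F1A, ATP5F1B, NDUFS1, NDUFA11, NDUFB7, NDUFC2, NDUFS8, MPC2, NRF1, GABPA and YY1, where named outside this rule, were added after values were seen. The members and lists were chosen with earlier results of these data known.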

Additional observations from a re-analysis of the deposited data

Results flagged for a closer look

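The response of RNR1 to cariporide differed between the 2 glucose levels by DESeq2's test of the interaction and not by edgeR's. The interaction was 0.69 on the log2 scale (edgeR adjusted p = 0.152, DESeq2 adjusted p = 1.31e-05). RNR1 was at 6520 to 7780 CPM in CAR, below the 8480 to 10300 of NG, and at 9210 to 10700 in LGCAR, above the 7770 to 8500 of LG. Each of the 3 CAR libraries was thus below each NG library, and each of the 3 LGCAR libraries above each LG library. Over the alternatives run, its adjusted p by edgeR ran from 0.0509 to 1. Cytosolic ribosomal RNA moved with it, at 7.10% to 8.53% in CAR, 7.83% to 11.2% in NG, 9.32% to 11.5% in LGCAR and 7.91% to 9.06% in LG, and its part in the result was not tested.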

How the results depend on the processing

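In LGCAR against NG the 1 mitochondrial call became 2 with RLE size factors, 3 with no filter, 2 with mitochondrial and ribosomal RNA left out of the scaling, 8 with the groups compared alone and 4 with DESeq2. It was 0 to 2 with a single library left out and 0 without NG 1 and LGCAR 3. The 3 nuclear calls became 9, 10, 10, 28 and 10 in the same order, while 9.31%, 5.98%, 9.52%, 24.3% and 12.2% of all genes were called under those settings and 8.75% in the fit reported. They were 5 with library totals only, 1 to 11 with a library left out and 1 without NG 1 and LGCAR 3. Of all genes, 10% were called without NG 1 and 0.889% to 2.18% without any other 1 library of NG or LGCAR. The share was 1.71% without NG 1 and LGCAR 3. Calls were thus lost over all genes too. In LGCAR against CAR the 4 mitochondrial calls became 5, with ATP6 added, with no filter and with DESeq2, 0 to 4 with a library left out and 1 without NG 1 and LGCAR 3, and the 1 nuclear call became 2 with library totals only, 0 to 1 with a library left out and 0 without NG 1 and LGCAR 3. In LGCAR against CAR 0.332% to 1.23% of all genes were called with a library left out, beside 1.65% in the fit reported. That share was 0.358% without NG 1 and LGCAR 3. The nuclear calls in LG against NG rose from 0 to 1 without LG 3, over a range of 0 to 1. DESeq2 called 1 mitochondrial member in CAR against NG and 1 in the interaction, where edgeR called 0. With RNR1 and RNR2 added, the log2 difference of the mitochondrial to nuclear ratio was 0.01 for CAR against NG, 0.09 for LGCAR against NG, 0.07 for LGCAR against LG, 0.08 for LGCAR against CAR and 0.06 for the interaction. The cause was not tested. With the replicate number as a block, LGCAR against NG had 0 mitochondrial and 1 nuclear calls and LGCAR against CAR had 2 and 0. Libraries of different groups were also correlated after the mean of each group was subtracted gene by gene. Same-numbered libraries then correlated at -0.111 to 0.135 over 18 pairs, and those of other numbers at -0.197 to 0.228. The numbers were therefore not taken to pair them. Of 122 results for named genes, 34 were called; over 1751 recomputed values 1506 kept their side of the threshold, 187 lost a call, 58 gained one and 0 changed direction.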
